A study of Danio rerio with 35 samples.

Results

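Loss of Nanog alone left 35 zygotic genes less than 4-fold below wild type (WT) at 4 hours post fertilization (hpf), while joint loss of Nanog, SoxB1 and Pou5f1 lowered them at least 4-fold, and these 35 genes are described here. They came from 27151 zebrafish genes. A gene was zygotic when it had under 1 RPKM (reads per kilobase of exon, scaled to library size) in WT at 2 hpf, 5 RPKM or more in poly(A)+ RNA of WT at 4 hpf, and at least 4-fold less in embryos given alpha-amanitin, an inhibitor of RNA polymerase II. Of 173 such genes, 125 were reduced in the triple loss and 89 of these were also reduced in Nanog MO. Reduced here means at least 4-fold below WT total RNA at 4 hpf after 0.5 was added to each RPKM value, a log2 ratio of -2 or lower. The 3 genes vgll4l, polr3gla and klf17 were left out by name, and of these only klf17 met the rest of the rule. Of the 35 members, 29 had a gene symbol and 6 an identifier only. The entry ENSDARG00000095311 carried the values of foxd3 times 1.01 to 1.02 in all 18 libraries where foxd3 reached 1 RPKM, so the members stand for 34 distinct loci.

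The series measured RNA of whole zebrafish embryos, with 5 embryos per condition, to ask which zygotic genes depend on Nanog, on SoxB1 proteins and on Pou5f1 to start transcription. WT embryos were of the TUAB strain. Nanog MO, SoxB1 MO and Nanog+SoxB1 MO were TUAB embryos injected at the 1-cell stage with morpholinos (antisense oligonucleotides), and MZpou5f1 embryos were homozygous for the hi349Tg allele of pou5f1, which the files list under the symbol pou5f3. MZpou5f1 embryos were collected without a morpholino, with Nanog MO, with SoxB1 MO, and with both (the triple loss), and the rescue was the triple loss with rescue mRNA whose content the labels do not name. TUAB embryos were also injected with amanitin, bathed from the 32-cell stage in cycloheximide, which blocks translation, or injected with U1 and U2 morpholinos, against splicing RNAs. Every condition at 4 hpf had 1 total RNA library. At 6 hpf total RNA had 3 WT libraries, 2 of Nanog+SoxB1 MO and 1 each of Nanog MO, MZpou5f1, MZpou5f1 SoxB1 MO, the triple loss, amanitin and cycloheximide. Poly(A)+ RNA had 1 library each of WT, the triple loss and the rescue at 6 and at 8 hpf, and 1 of WT at 4 hpf. MZpou5f1 and WT differ in strain as well as in pou5f3, and these differences cannot be told apart.

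Nanog is a homeodomain protein, SoxB1 proteins are HMG-box factors and Pou5f1 is a POU-domain factor. In the zebrafish egg their messages are stored maternally, and the proteins bind many regulatory regions at which early zygotic transcription starts, often close to each other. SOX and POU factors are known to bind neighbouring sites on DNA as a pair.

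RPKM tables hold no read counts, so absolute depth is unknown. Relative depth, read from the step between low values and set against WT total RNA at 4 hpf, ran from 0.228 in Nanog+SoxB1 MO replicate 1 at 6 hpf to 2.585 in cycloheximide at 4 hpf. At 4 hpf pou5f3 had 157 RPKM in WT and 28.0 RPKM in the library labelled MZpou5f1, while the 8 other MZpou5f1 libraries without rescue held 0.088 to 4.63 RPKM. Translation-blocking morpholinos need not lower their target's RNA, so RNA levels do not check them: nanog had 598 RPKM in WT and 463 RPKM in Nanog MO at 4 hpf. Genes of 8 marker lists were measured in the same libraries. At 6 hpf in Nanog+SoxB1 MO, 11 of 11 tested entries of the yolk syncytial layer, 11 of 11 ventral, 15 of 21 enveloping layer and epidermis, 7 of 8 neuroectoderm, 12 of 15 mesoderm and endoderm and 9 of 14 organizer entries were lower than in WT by limma. Higher there were 7 of 9 germ plasm and 5 of 7 p53 stress genes, and cldnb of the enveloping layer list. Summed levels in Nanog+SoxB1 MO were 440 and 473 RPKM (germ plasm) and 992 and 1040 RPKM (p53 stress), against 120 to 169 and 589 to 784 RPKM in WT. Of all genes, 14% were lower and 30.3% higher. The lower list entries include the members apoeb, krt18a.1, klf2b, irx7, sox19a, aplnrb and foxd3. In whole embryos, fewer cells of a type and less RNA per cell cannot be told apart, and the part these lists play in the results was not tested.

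Values of the rule are given as a description, with no test. Triple loss held 23 of the 35 members under 1 RPKM, 6 of them at 0, with log2 ratios to WT from -5.99 to -2.11 and a median of -3.46, where 3.85% of 12304 genes with enough WT signal were reduced. In Nanog MO the ratios ran from -1.91 to 0.97, with a median of -0.88, 3 members lay above WT, and 1.67% of the same genes were reduced. Just inside the Nanog MO limit lay znf1050 (-1.91) and apoeb (-1.88), and just outside it ENSDARG00000093544 (-2.01) and krt4 (-2.14). Just inside the triple-loss limit lay cldn23.1 (-2.11) and znf1050 (-2.19), and just outside it ENSDARG00000089854 (-1.93) and arg2 (-1.86). The members thus form no separate group on these scales. In WT at 4 hpf they had 2.16 to 97.4 RPKM in total RNA, with a median of 14.4 RPKM, and 19 of them were at 0 at 2 hpf.

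Most members were reduced once Nanog MO was joined by loss of either other factor. Nanog+SoxB1 MO reduced 27 of the 35 (median log2 ratio -3.05), where 2.45% of the 12304 genes were reduced. MZpou5f1 Nanog MO reduced 24 (median -2.80, background 3.63%) and MZpou5f1 SoxB1 MO, in which Nanog was not targeted, reduced 22 (median -2.47, background 2.98%). SoxB1 MO alone reduced 5 (median -0.63, background 0.439%) and the library labelled MZpou5f1 reduced 11 (median -0.85, background 1.47%). A set of 21 members was reduced in none of Nanog MO, SoxB1 MO and that library. That library held 28.0 RPKM of pou5f3, so the count of 21 does not stand for full loss of Pou5f1. Of the 21, irx7, slc25a55a, sult6b1, ENSDARG00000088373 and ENSDARG00000088382 were called lower in MZpou5f1 at 6 hpf by limma, and none was called higher. The members were chosen on the WT, amanitin, Nanog MO and triple-loss libraries, so the rule itself set that Nanog MO did not reduce them. Every count here shares the WT total RNA library at 4 hpf, so these shares are descriptions. Among the 89 zygotic genes that Nanog MO did reduce, Nanog+SoxB1 MO reduced 89, MZpou5f1 Nanog MO 85 and MZpou5f1 SoxB1 MO 45. Of all 173 zygotic genes, which include the members, the pairs reduced 72.3%, 64.2% and 39.3% in the same order, beside 77.1%, 68.6% and 62.9% of the members. The shares of the 2 Nanog pairs are thus not particular to the members. SoxB1 MO alone reduced 8.09% of the 173 and the library labelled MZpou5f1 21.4%. Genes reduced in neither of these made up 60% of the members and 69.7% of the 89. They made up 97.9% of the 48 zygotic genes not reduced in the triple loss. Being reduced in neither is thus not particular to the members.

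**Figure D1:**
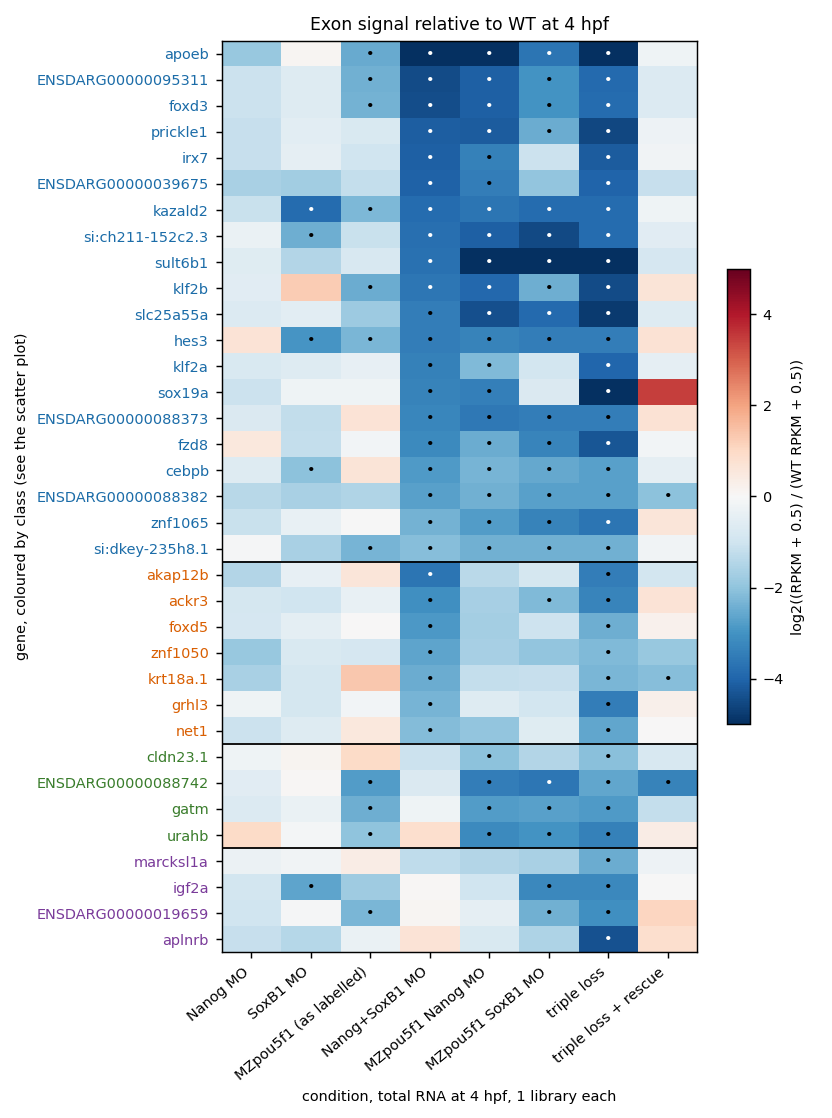
Log2 ratio of exon RPKM + 0.5 to WT in total RNA at 4 hpf, for the 35 members (rows, grouped by the class of the second factor) and 8 conditions (columns, 1 library each). Colours are capped at -5 and 5, dots mark values of -2 or lower, and the darkest columns are the paired losses and the triple loss, while the rescue column holds 3 dots.

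Set by the factor lost beside Nanog, the members fell into 4 classes: 20 were reduced in both Nanog pairs, 7 only with SoxB1 MO, 4 only with MZpou5f1, and 4 in neither. In the same order, the 89 zygotic genes reduced in Nanog MO and the triple loss split into 85, 4, 0 and 0. The 48 zygotic genes not reduced in the triple loss split into 1, 7, 0 and 40. The values did not separate into clean classes, since 22 members lay less than 2-fold apart in the Nanog pairs, 7 were at least 2-fold lower with SoxB1 MO and 6 at least 2-fold lower with MZpou5f1. Depth also differed, at 0.376 of WT in Nanog+SoxB1 MO and 1.24 in MZpou5f1 Nanog MO. Counted at 8-fold, 14 members were reduced in both pairs and 15 in neither. Without the entry that shares the values of foxd3, 19 were reduced in both.

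**Figure D2:**
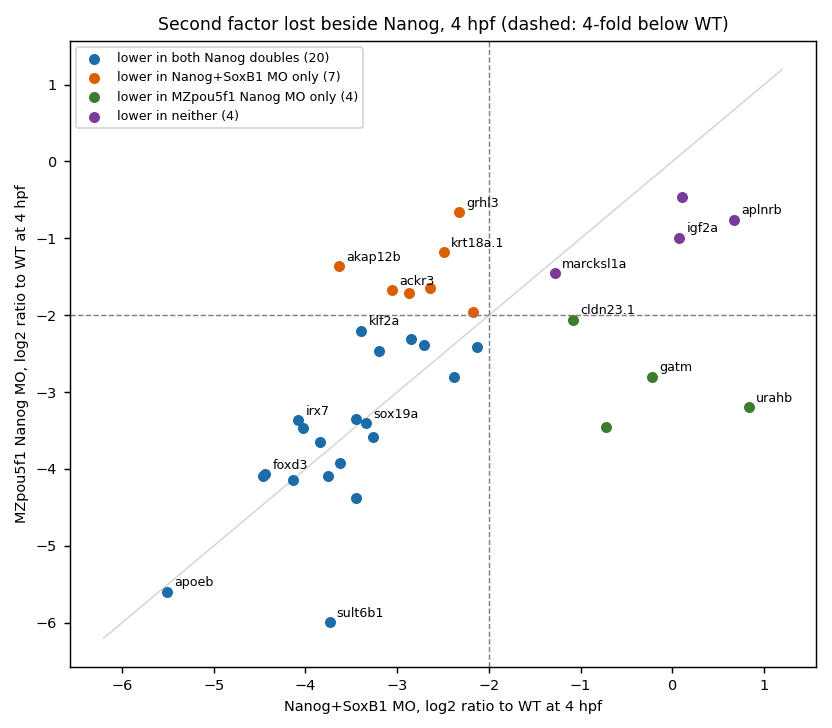
Log2 ratio to WT at 4 hpf in Nanog+SoxB1 MO (horizontal) and MZpou5f1 Nanog MO (vertical), 1 point per member and 1 library per condition, coloured by class, with dashed lines 4-fold below WT and a grey line of equal ratios. The largest class of 20 members sits at the lower left, and urahb (0.84 horizontally and -3.19 vertically) lies farthest from the line of equal ratios.

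The class reduced in both Nanog pairs held the transcription factor genes irx7, sox19a, foxd3, klf2a, klf2b, cebpb and hes3. The Iroquois homeobox gene irx7 had 82.0 RPKM in WT at 4 hpf, 36.3 in Nanog MO, 59.8 in SoxB1 MO and 40.7 in the library labelled MZpou5f1, then 4.38 in Nanog+SoxB1 MO, 7.51 in MZpou5f1 Nanog MO, 38.8 in MZpou5f1 SoxB1 MO, 4.17 in the triple loss and 71.7 in the rescue. The rule required a low triple loss and no reduction in Nanog MO. Given that, irx7 was low only in the 3 libraries in which Nanog MO was combined with another loss. The zygotic SoxB1 gene sox19a was likewise low only there, with 52.2 RPKM in WT, 24.5 in Nanog MO, 44.7 in SoxB1 MO, 45.5 in the library labelled MZpou5f1, 4.71 in Nanog+SoxB1 MO, 4.47 in MZpou5f1 Nanog MO, 31.5 in MZpou5f1 SoxB1 MO and 1.06 in the triple loss. Its 583 RPKM in the rescue cannot be told apart from injected mRNA, and nanog, pou5f3, sox2 and sox3 also stood above WT there. The Krüppel-like gene klf2a, a relative of klf2b, had 34.98 RPKM in WT, 20.6 in Nanog MO, 22.3 in SoxB1 MO and 26.5 in the library labelled MZpou5f1. It had 2.88 RPKM in Nanog+SoxB1 MO, 7.22 in MZpou5f1 Nanog MO, 18.2 in MZpou5f1 SoxB1 MO, 1.77 in the triple loss and 25.5 in the rescue. With ENSDARG00000039675, these were the 4 members reduced in both Nanog pairs but not in MZpou5f1 SoxB1 MO.

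A further 16 members were reduced in all 3 paired losses. The forkhead gene foxd3, a regulator of pluripotency and of the neural crest, had 10.3 RPKM in WT, 4.66 in Nanog MO, 6.49 in SoxB1 MO, 1.58 in the library labelled MZpou5f1, 0 in Nanog+SoxB1 MO, 0.146 in MZpou5f1 Nanog MO, 0.864 in MZpou5f1 SoxB1 MO, 0.245 in the triple loss and 6.29 in the rescue. klf2b had 21.9 RPKM in WT, 14.7 in Nanog MO, 53.2 in SoxB1 MO, 3.52 in the library labelled MZpou5f1, 1.32, 0.97 and 3.67 in the pairs (in the order used for foxd3), 0.516 in the triple loss and 34.3 in the rescue. Both genes were thus low in every MZpou5f1 library without rescue, and klf2b stood above WT in SoxB1 MO. The apolipoprotein gene apoeb, expressed in the yolk syncytial layer, had 62.3 RPKM in WT, 16.6 in Nanog MO, 66.5 in SoxB1 MO, 10.5 in the library labelled MZpou5f1, 0.878, 0.798 and 4.49 in the pairs, 1.17 in the triple loss and 53.8 in the rescue. The gene si:ch211-152c2.3 had 19.7 RPKM in WT, 15.5 in Nanog MO, 3.20 in SoxB1 MO, 8.74 in the library labelled MZpou5f1, 0.999, 0.682 and 0.384 in the pairs, 0.887 in the triple loss and 13.1 in the rescue, and was the highest member in WT poly(A)+ RNA at 4 hpf (110 RPKM).

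Others of the 16 were reduced in single losses that left Nanog in place. The Hairy/Enhancer-of-split repressor gene hes3, chosen for description after its values were seen, had 4.97 RPKM in WT, 8.36 in Nanog MO, 0.205 in SoxB1 MO, 0.627 in the library labelled MZpou5f1, at most 0.036 in the pairs and the triple loss, and 8.54 in the rescue. kazald2, which encodes a Kazal-domain protein and was chosen in the same way, had 6.66 RPKM in WT, 2.84 in Nanog MO, 0 in SoxB1 MO and 1.02 in the library labelled MZpou5f1. These 2 genes were the only members reduced in both SoxB1 MO and the library labelled MZpou5f1. The bZIP factor gene cebpb was reduced in SoxB1 MO, as was si:ch211-152c2.3. The gene si:dkey-235h8.1 was reduced in the library labelled MZpou5f1, as were klf2b, apoeb, foxd3 and the entry ENSDARG00000095311 that shares the values of foxd3. The rest of the 16 were reduced neither in SoxB1 MO alone nor in the library labelled MZpou5f1. They were slc25a55a (a mitochondrial carrier), fzd8 (a Wnt receptor), prickle1 (planar cell polarity), sult6b1 (a sulfotransferase), ENSDARG00000088373, ENSDARG00000088382 and znf1065. The last is of a multigene zinc-finger family, in which reads may be split between copies.

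The 7 members reduced with SoxB1 MO but not with MZpou5f1 beside Nanog MO included the epidermal genes krt18a.1 and grhl3. The members klf2a and klf2b, of the same marker list, were in the class reduced in both pairs. None of the 7 was reduced in SoxB1 MO alone or in the library labelled MZpou5f1. The keratin gene krt18a.1 had 53.8 RPKM in WT, 17.3 in Nanog MO, 29.1 in SoxB1 MO, 138 in the library labelled MZpou5f1, 9.14 in Nanog+SoxB1 MO, 23.4 in MZpou5f1 Nanog MO, 24.1 in MZpou5f1 SoxB1 MO, 10.5 in the triple loss and 12.0 in the rescue. It was above WT only in the library labelled MZpou5f1, and remained reduced in the rescue. The grainyhead gene grhl3, an epidermal regulator, had 33.8 RPKM in WT, 29.2 in Nanog MO, 17.955 in SoxB1 MO, 30.9 in the library labelled MZpou5f1, 6.36 in Nanog+SoxB1 MO, 21.2 in MZpou5f1 Nanog MO, 17.6 in MZpou5f1 SoxB1 MO, 2.62 in the triple loss and 40.9 in the rescue. The forkhead gene foxd5, a neural plate regulator, had 7.32 RPKM in WT, 3.86 in Nanog MO, 5.15 in SoxB1 MO, 7.45 in the library labelled MZpou5f1, 0.564, 1.88 and 3.28 in the pairs, 0.955 in the triple loss and 8.59 in the rescue. For both genes Nanog+SoxB1 MO and the triple loss were the lowest libraries of the 9. The others were net1, akap12b (an anchor of protein kinase A), ackr3 (an atypical chemokine receptor) and znf1050 (a zinc-finger gene), of which ackr3 was also reduced in MZpou5f1 SoxB1 MO.

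The 4 members reduced beside Nanog MO only with MZpou5f1 were gatm (creatine synthesis), urahb (urate breakdown), cldn23.1 (a claudin of cell junctions) and ENSDARG00000088742. The level of urahb was 4.75 RPKM in WT, 9.78 in Nanog MO, 4.41 in SoxB1 MO, 8.86 in Nanog+SoxB1 MO and 6.27 in the rescue, against 0.791 in the library labelled MZpou5f1, 0.073 in MZpou5f1 Nanog MO, 0.165 in MZpou5f1 SoxB1 MO and 0 in the triple loss. gatm had 4.05 RPKM in WT, 2.37 in Nanog MO, 3.13 in SoxB1 MO, 3.39 in Nanog+SoxB1 MO and 1.5 in the rescue, against 0.33, 0.153, 0.188 and 0.14 RPKM in the same MZpou5f1 libraries. These 2 genes and ENSDARG00000088742 were reduced in every library of MZpou5f1 embryos without rescue and in none of TUAB embryos among the 4 hpf losses. Under amanitin, urahb was at 7.62 RPKM and gatm at 1.89 RPKM, so these 2 met the zygotic rule through their higher poly(A)+ level and were not 4-fold below WT total RNA. cldn23.1 had 13.3 RPKM in WT, 11.5 in Nanog MO, 14.8 in SoxB1 MO, 26.1 in the library labelled MZpou5f1, 6.02 in Nanog+SoxB1 MO, 2.82 in MZpou5f1 Nanog MO, 4.51 in MZpou5f1 SoxB1 MO, 2.72 in the triple loss and 7.40 in the rescue.

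The 4 members reduced in neither Nanog pair were the apelin receptor gene aplnrb, the MARCKS-like gene marcksl1a, the growth factor gene igf2a and ENSDARG00000019659. aplnrb, which guides mesendoderm cells in gastrulation, had 29.4 RPKM in WT, 12.9 in Nanog MO, 10.7 in SoxB1 MO, 23.5 in the library labelled MZpou5f1, 47.0 in Nanog+SoxB1 MO, 17.2 in MZpou5f1 Nanog MO, 9.74 in MZpou5f1 SoxB1 MO, 0.95 in the triple loss and 52.5 in the rescue. The rule required a low triple loss, and the next lowest library was MZpou5f1 SoxB1 MO. marcksl1a had 48.1 RPKM in WT, 39.1 in Nanog MO, 42.7 in SoxB1 MO, 61.9 in the library labelled MZpou5f1, 19.6, 17.3 and 15.4 in the pairs, 8.31 in the triple loss and 40.05 in the rescue. These 2 genes were reduced in no pair. For igf2a, chosen for description after its values were seen, the 3.65 RPKM of Nanog MO and 7.80 of Nanog+SoxB1 MO stood beside 7.39 in WT, while SoxB1 MO had 0.78, the library labelled MZpou5f1 1.82, MZpou5f1 Nanog MO 3.47, MZpou5f1 SoxB1 MO 0.34, the triple loss 0.337 and the rescue 7.38. ENSDARG00000019659 had 6.87 RPKM in WT, 3.20 in Nanog MO, 6.67 in SoxB1 MO, 7.43 in Nanog+SoxB1 MO, 1.01 in the library labelled MZpou5f1, 4.83 in MZpou5f1 Nanog MO, 0.888 in MZpou5f1 SoxB1 MO, 0.377 in the triple loss and 15.1 in the rescue. Both were reduced in MZpou5f1 SoxB1 MO, in which Nanog was not targeted, and not in MZpou5f1 Nanog MO. Each condition had 1 library, and which factor these genes need was not tested.

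Intron reads, which come from unspliced transcripts, were at 0.3 RPKM or more in WT at 4 hpf for 21 members. With 0.1 added, Nanog+SoxB1 MO reduced 15 of them (15.6% of 4253 genes), MZpou5f1 Nanog MO 13 (11.9%), MZpou5f1 SoxB1 MO 10 (9.29%), Nanog MO 4 (9.73%), the library labelled MZpou5f1 7 (4.56%), SoxB1 MO 2 (4.33%), the triple loss 19 (15.8%) and the rescue 0 (3.79%). The rule chose the members on exon values of the same WT, Nanog MO and triple-loss libraries. The intron counts for Nanog MO and the triple loss are therefore descriptions. Introns put 15 of the 21 in the same class as exons. sox19a introns were at 6.51 RPKM in WT, 0 in Nanog MO, 6.31 in SoxB1 MO, 15.3 in the library labelled MZpou5f1, 0 in Nanog+SoxB1 MO and the triple loss, and 18.4 in the rescue. Its introns were thus lowest where Nanog MO was present and above WT in the rescue. Introns of irx7 were at 1.54 RPKM in WT, 1.55 in Nanog MO, 0 in Nanog+SoxB1 MO, MZpou5f1 Nanog MO and the triple loss, and 4.46 in the rescue. Of the members reduced by exons only with SoxB1 MO, introns kept 3 in that class. They placed krt18a.1 and grhl3 in neither, with intron log2 ratios of -1.93 and -1.58 in Nanog+SoxB1 MO. Introns placed znf1050 in another class than exons did, reduced in both pairs. Its introns were at 7.30 RPKM in WT, 0.922 in Nanog MO and 0.049 in MZpou5f1 Nanog MO. The 4 members whose introns were reduced in Nanog MO were sox19a, apoeb, ENSDARG00000039675 and znf1050. By introns, these 4 were therefore reduced without loss of another factor.

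Inhibitors of translation and splicing also lowered many members at 4 hpf. Cycloheximide reduced 28 of 35 (median log2 ratio -2.92, background 3.57%) and U1U2 MO 14 (median -1.69, background 1.54%). Among all 173 zygotic genes they reduced 127 (73.4%) and 63 (36.4%). Among the 89 zygotic genes reduced in Nanog MO and the triple loss they reduced 80 (89.9%) and 44 (49.4%). These shares are thus not particular to the members. In cycloheximide 6 members, irx7, sox19a, slc25a55a, klf2a, akap12b and grhl3, kept at least 5 RPKM and at least 4 times the amanitin level. irx7 had 36.8 RPKM in cycloheximide and 0.382 in amanitin, and krt18a.1 had 0.33 and 0.029 RPKM. In U1U2 MO irx7 was at 166 RPKM, above the 82.0 of WT, while grhl3 was at 0.814 RPKM. By 6 hpf WT levels had diverged: the 6 hpf mean was 22.6 times the 4 hpf RPKM for krt18a.1 and 15.3 times for apoeb, but 0.227 times for klf2a and 0.054 times for si:dkey-235h8.1.

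**Figure D3:**
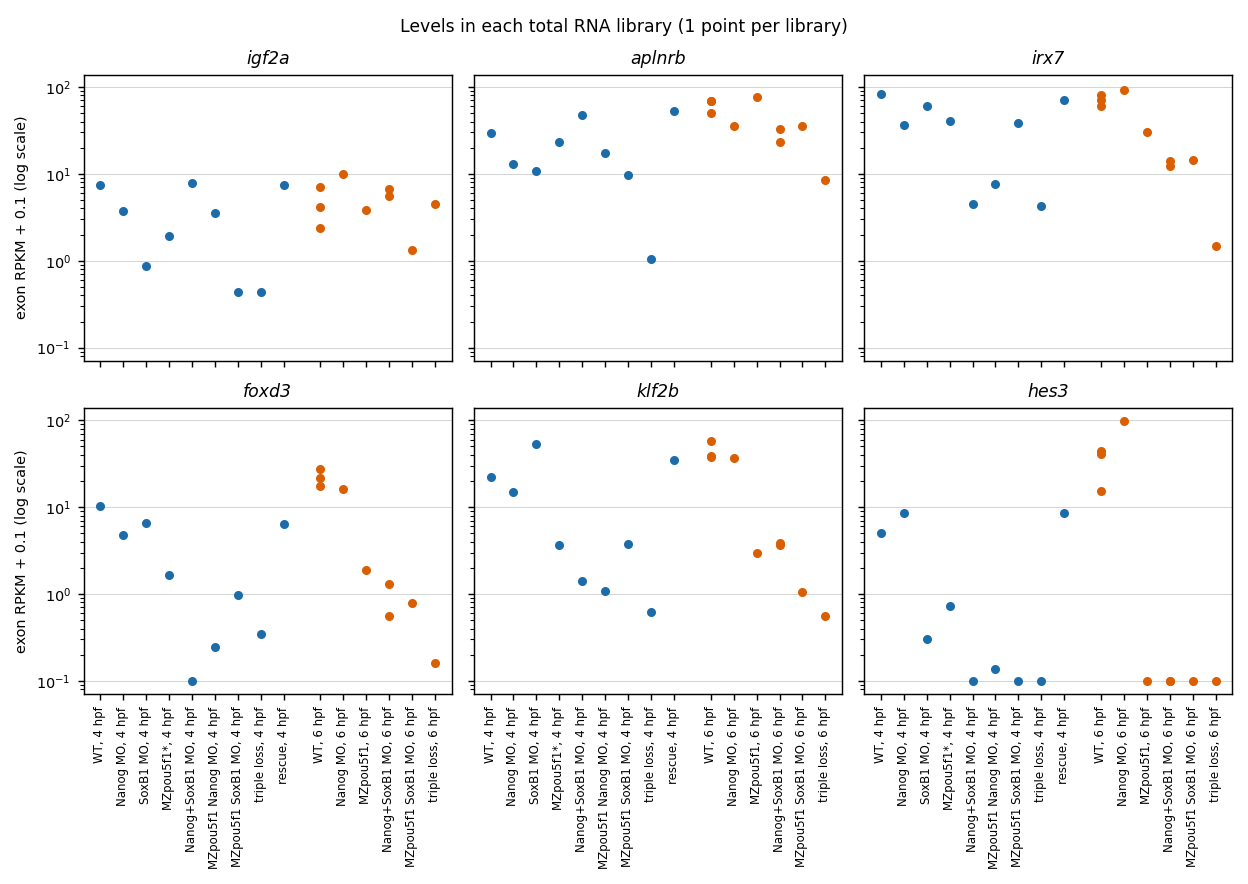
Exon RPKM + 0.1 (vertical, log scale) of 6 members in total RNA libraries of WT, the losses and the rescue at 4 hpf (blue) and of WT and the losses at 6 hpf (orange), 1 point per library, with MZpou5f1* the library labelled MZpou5f1 at 4 hpf. The aplnrb point of the triple loss at 4 hpf (0.95 RPKM), a library in which the rule required low values, lies below its other points plotted here. hes3 is at 0 at 6 hpf in MZpou5f1, Nanog+SoxB1 MO, MZpou5f1 SoxB1 MO and the triple loss.

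At 6 hpf, in libraries the rule did not use, Nanog MO lowered 9 of 34 members and Nanog+SoxB1 MO lowered 22. These calls are from limma with Benjamini-Hochberg adjusted p under 0.05 over 16242 genes. Backgrounds were 10.1% lower and 19% higher for Nanog MO, and 14% lower and 30.3% higher for Nanog+SoxB1 MO. The low-level gene si:dkey-235h8.1 did not pass the filter of 1 RPKM in at least 2 libraries, and the other 34 passed it also without WT. In Nanog MO 2 members were higher (prickle1 and kazald2), and in Nanog+SoxB1 MO none was higher. The median log2 fold change was -0.34 in Nanog MO and -1.18 in Nanog+SoxB1 MO, beside medians over all genes of 0.21 and 0.30. With each library centred on its median, 13 and 29 members were lower, beside 3019 and 4045 of all 16242 genes. Conditions with 1 library took their spread from the replicated ones, WT and Nanog+SoxB1 MO.

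The members that were low at 6 hpf in Nanog+SoxB1 MO and not called in Nanog MO numbered 12. Being called in Nanog+SoxB1 MO and not in Nanog MO is no test of the difference, for which a direct comparison is given below. SoxB1 MO without Nanog MO was not measured in TUAB embryos at 6 hpf, so loss of SoxB1 alone and joint loss cannot be told apart there. irx7 had 79.9, 71.5 and 60.6 RPKM in the WT libraries (70.7 ± 9.69, SD, n = 3), 93.5 in Nanog MO, 14.0 and 12.4 in Nanog+SoxB1 MO (13.2 ± 1.13, SD, n = 2), 30.1 in MZpou5f1, 14.2 in MZpou5f1 SoxB1 MO and 1.39 in the triple loss. Nanog MO was thus above all WT libraries and the other conditions below them, with log2 fold changes in limma of 0.41 ± 0.20 (SE) in Nanog MO (adjusted p = 0.164) and -2.38 ± 0.16 in Nanog+SoxB1 MO (adjusted p = 0.00013). foxd3 had 27.4, 21.6 and 17.5 RPKM in WT, 15.9 in Nanog MO, 1.201 and 0.453 in Nanog+SoxB1 MO, 1.796 in MZpou5f1, 0.688 in MZpou5f1 SoxB1 MO and 0.061 in the triple loss. Its limma log2 fold change was -4.13 ± 0.34 in Nanog+SoxB1 MO (adjusted p = 0.000243) and -0.44 ± 0.42 in Nanog MO (adjusted p = 0.46). klf2b had 58.2, 38.5 and 37.3 RPKM in WT, 36.4 in Nanog MO, 3.77 and 3.52 in Nanog+SoxB1 MO, 2.86 in MZpou5f1, 0.956 in MZpou5f1 SoxB1 MO and 0.454 in the triple loss. The 2 Nanog+SoxB1 MO libraries lay below every WT library for klf2b, with a limma log2 fold change of -3.42 ± 0.25 (adjusted p = 0.000172).

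hes3 had 43.9, 40.2 and 15.2 RPKM in WT and 98.5 in Nanog MO, and was listed at 0 in both Nanog+SoxB1 MO libraries, MZpou5f1, MZpou5f1 SoxB1 MO and the triple loss. It was called lower in all of these conditions (limma adjusted p = 0.000229 in Nanog+SoxB1 MO and 0.0061 in MZpou5f1, the latter lost without either Nanog+SoxB1 MO replicate). kazald2 had 18.2, 23.2 and 13.1 RPKM in WT, 62.5 in Nanog MO, 6.48 and 4.30 in Nanog+SoxB1 MO, 2.49 in MZpou5f1, 0.357 in MZpou5f1 SoxB1 MO and 3.16 in the triple loss. It was the member called higher in Nanog MO (log2 fold change 1.79 ± 0.39, limma adjusted p = 0.0173, lost with no filter) and lower in Nanog+SoxB1 MO (-1.65 ± 0.31, adjusted p = 0.00602), a call lost without Nanog+SoxB1 MO replicate 2. aplnrb had 68.6, 68.3 and 50.2 RPKM in WT, 35.9 in Nanog MO, 23.0 and 33.1 in Nanog+SoxB1 MO, 77.2 in MZpou5f1, 35.6 in MZpou5f1 SoxB1 MO and 8.48 in the triple loss. At 6 hpf it was therefore below all WT libraries in Nanog+SoxB1 MO, unlike at 4 hpf, when its level there was above WT, and its log2 fold change was -1.15 ± 0.21 (limma adjusted p = 0.00559, lost without Nanog+SoxB1 MO replicate 1).

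Direct comparison of Nanog+SoxB1 MO with Nanog MO at 6 hpf called 9 members lower and none higher, where 0.616% of all genes were lower. They were irx7, slc25a55a, foxd3, apoeb, klf2b, si:ch211-152c2.3, hes3, kazald2 and ENSDARG00000095311. This count rested on few libraries, since it went to 0 without either Nanog+SoxB1 MO replicate and to 2 without WT replicate 2. The 1 Nanog MO library enters every such value. Among the 9, irx7 had a limma log2 fold change of -2.78 ± 0.21 (adjusted p = 0.0104).

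MZpou5f1 without a morpholino lowered 14 of 34 members at 6 hpf (limma, background 2.73%) and raised none (2.23%), and MZpou5f1 SoxB1 MO lowered 20 (background 9.04%). Of the 89 zygotic genes reduced at 4 hpf in Nanog MO and the triple loss, they lowered 19 and 40 and raised 10 and 15. The first count went from 14 to 7 without WT replicate 1, 9 without WT replicate 2, and 6 and 4 without Nanog+SoxB1 MO replicate 1 and 2. si:ch211-152c2.3 had 276, 223 and 237 RPKM in WT, 121 in Nanog MO, 36.9 and 33.2 in Nanog+SoxB1 MO, 4.25 in MZpou5f1, 2.85 in MZpou5f1 SoxB1 MO and 5.82 in the triple loss. Its MZpou5f1 libraries lay below its Nanog+SoxB1 MO libraries, with a log2 fold change against WT of -5.69 ± 0.18 in MZpou5f1 (limma adjusted p = 0.000134). sult6b1 had 363, 266 and 245 RPKM in WT, 106 in Nanog MO, 70.5 and 97.7 in Nanog+SoxB1 MO and 0.87 to 1.55 RPKM in the 3 MZpou5f1 conditions. At 4 hpf the library labelled MZpou5f1, which held pou5f3 transcript, had 17.7 RPKM of sult6b1 against 31.4 in WT. MZpou5f1 SoxB1 MO compared directly with MZpou5f1 lowered 1 member, ENSDARG00000088373 and raised none (backgrounds 0.117% and 0.00616%), a call lost when any WT or Nanog+SoxB1 MO replicate was left out, while 12 of 34 members and 1719 of 16242 genes had an unadjusted p under 0.05.

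Triple loss lowered 29 of 34 members at 6 hpf (limma, background 15.7%) with none higher and a median log2 fold change of -2.67, beside 0.40 over all genes. apoeb had 1068, 874 and 909 RPKM in WT, 201 in Nanog MO, 21.1 and 32.6 in Nanog+SoxB1 MO, 286 in MZpou5f1, 97.4 in MZpou5f1 SoxB1 MO and 3.48 in the triple loss, a log2 fold change of -7.90 ± 0.24 there (limma adjusted p = 1.3e-05). The 11 other entries of the yolk syncytial layer list, summed, had 1448 to 1572 RPKM in WT, 51.7 in Nanog MO, 16.2 and 22.8 in Nanog+SoxB1 MO, 807 in MZpou5f1, 362 in MZpou5f1 SoxB1 MO and 8.08 in the triple loss, where 6 of them, with the defining genes mttp, apoa1a and apobb.1, were at 0. The list and apoeb were thus both below all WT libraries in each of these losses, but not in the same order. The list was lower in Nanog MO than in MZpou5f1 SoxB1 MO, and apoeb was higher. The part of the list in the value of apoeb was not tested. sox19a had 336, 364 and 334 RPKM in WT, 110 in Nanog MO, 77.1 and 77.2 in Nanog+SoxB1 MO, 344 in MZpou5f1, 387 in MZpou5f1 SoxB1 MO and 16.9 in the triple loss. It was thus below WT in each library with Nanog MO, and within or above the WT range in the MZpou5f1 libraries without it. krt18a.1 had 1290, 1160 and 1188 RPKM in WT, 598 in Nanog MO, 403 and 349 in Nanog+SoxB1 MO, 908 in MZpou5f1, 590 in MZpou5f1 SoxB1 MO and 135 in the triple loss, and fell by 3.16 ± 0.13 on the log2 scale there (limma adjusted p = 2.85e-05). The 19 enveloping layer and epidermis entries that are no members, summed, had 2830 to 3597 RPKM in WT, 1595 in Nanog MO, 1254 and 1378 in Nanog+SoxB1 MO, 2948 in MZpou5f1, 1873 in MZpou5f1 SoxB1 MO and 789 in the triple loss. This list was below WT where krt18a.1 was, except in MZpou5f1, where the list was within its WT range. The part of the list in the value of krt18a.1 was not tested.

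The triple loss lay below Nanog+SoxB1 MO for 16 members (limma, background 3.12%) and below MZpou5f1 SoxB1 MO for 12 (background 2.35%), with none higher in either. Without Nanog+SoxB1 MO replicate 1 these counts were 2 and 6, without its replicate 2 they were 6 and 6, and without WT replicate 2 the second was 8. Differences between effects were tested as well: the Nanog MO effect was more negative in MZpou5f1 SoxB1 MO embryos than in WT for 3 members (background 0.197%) and less negative for none (0.0431%), the MZpou5f1 effect was more negative in Nanog+SoxB1 MO embryos than in WT for 3 (0.376%) and less negative for 1 (0.203%), and the SoxB1 MO effect was called different between Nanog MO and MZpou5f1 embryos for none (0.0246% lower, 0.00616% higher). All calls of the first 2 kinds were lost without either Nanog+SoxB1 MO replicate, and without WT replicate 2 all of the first kind and all but 1 of the second. marcksl1a had 271, 254 and 268 RPKM in WT, 166 in Nanog MO, 194 and 166 in Nanog+SoxB1 MO, 174 in MZpou5f1, 139 in MZpou5f1 SoxB1 MO and 72.5 in the triple loss. cldn23.1 had 136, 141 and 132 RPKM in WT, 112 in Nanog MO, 91.4 and 76.5 in Nanog+SoxB1 MO, 169 in MZpou5f1, 112 in MZpou5f1 SoxB1 MO and 30.5 in the triple loss. For both genes every other loss measured at 6 hpf stood above the triple loss, as for aplnrb. SoxB1 MO alone and MZpou5f1 Nanog MO were not measured at 6 hpf. foxd5 had 47.7, 44.2 and 31.4 RPKM in WT, 30.4 in Nanog MO, 16.3 in both Nanog+SoxB1 MO libraries, 69.6 in MZpou5f1, 46.4 in MZpou5f1 SoxB1 MO and 6.39 in the triple loss.

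Of the members lower in the triple loss at 6 hpf, net1, ackr3 and grhl3 were called in no other loss measured then. Not being called does not show that they were unchanged. In Nanog+SoxB1 MO, net1 and grhl3 lay below all WT libraries (as did 21.2% of all genes), while ackr3 overlapped WT. The grhl3 value there was -0.50 ± 0.18 (limma adjusted p = 0.0568). In Nanog MO net1 had 6.31 RPKM, against 10.3, 13.7 and 11.6 in WT. grhl3 had 51.5, 38.3 and 39.5 RPKM in WT, 34.4 in Nanog MO, 33.1 and 27.3 in Nanog+SoxB1 MO, 38.1 in MZpou5f1, 36.0 in MZpou5f1 SoxB1 MO and 18.4 in the triple loss, a log2 fold change of -1.19 ± 0.22 there (limma adjusted p = 0.00562). The 5 members not called in the triple loss were igf2a, gatm, klf2a, znf1050 and ENSDARG00000088742. klf2a had 7.24, 4.69 and 11.9 RPKM in WT, 17.8 in Nanog MO, 3.47 and 3.86 in Nanog+SoxB1 MO, 12.6 in MZpou5f1, 16.4 in MZpou5f1 SoxB1 MO and 9.42 in the triple loss, within the WT range. gatm had 2.49, 1.40 and 3.43 RPKM in WT, 2.81 in Nanog MO, 1.52 and 0.23 in Nanog+SoxB1 MO, 0.049 in MZpou5f1, 0.105 in MZpou5f1 SoxB1 MO and 0.418 in the triple loss, so its WT and MZpou5f1 libraries did not overlap. urahb had 26.3, 15.0 and 33.6 RPKM in WT, 4.32 in Nanog MO, 2.14 and 4.85 in Nanog+SoxB1 MO, 1.801 in MZpou5f1, 0.737 in MZpou5f1 SoxB1 MO and 0.245 in the triple loss, and unlike at 4 hpf it was low in Nanog MO as well. ENSDARG00000019659 had 18.1, 15.995 and 11.5 RPKM in WT, 5.92 in Nanog MO, 2.88 and 3.26 in Nanog+SoxB1 MO, 3.49 in MZpou5f1, 1.84 in MZpou5f1 SoxB1 MO and 3.14 in the triple loss, with each of these losses below all WT libraries. igf2a, at 4.11, 6.91 and 2.29 RPKM in WT and 4.41 in the triple loss, was within its WT range.

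**Figure D4:**
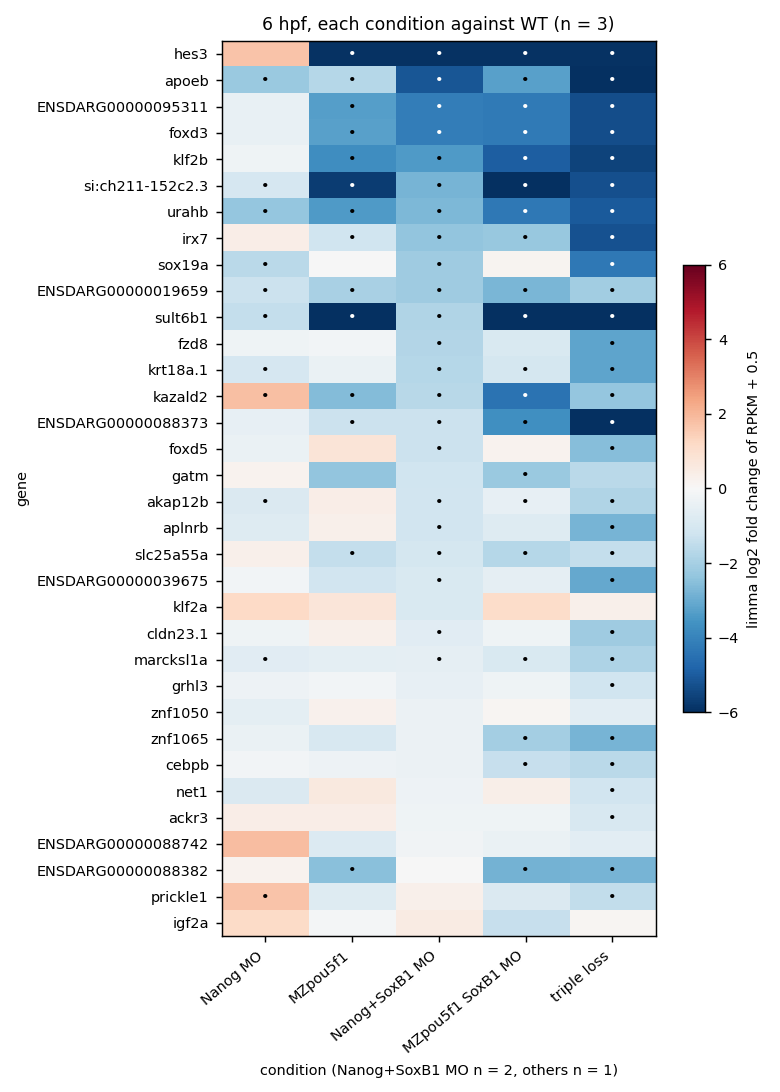
Log2 fold change against WT (n = 3) at 6 hpf for 34 members (rows, ordered by Nanog+SoxB1 MO) in 5 conditions, with colours capped at -6 and 6 and dots for limma adjusted p under 0.05. Dots mark 9 lower and 2 higher members in Nanog MO, 14 lower in MZpou5f1, 22 in Nanog+SoxB1 MO, 20 in MZpou5f1 SoxB1 MO and 29 in the triple loss.

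Amanitin lowered 31 of 34 members at 6 hpf (limma, background 28.7%). The 3 not called were gatm, urahb and ENSDARG00000088742, the 3 members of the Pou5f1-only class that were reduced at 4 hpf in every MZpou5f1 library without rescue. Under amanitin gatm was at 2.99 RPKM and urahb at 16.3 RPKM, each within its WT range. Cycloheximide lowered 25 (background 23%) and raised irx7 and klf2a (background 37.5%), the call of klf2a being lost with no filter. In cycloheximide irx7 was at 165 RPKM and klf2a at 29.7 RPKM, above all their WT libraries. Of the 89 zygotic genes reduced at 4 hpf in Nanog MO and the triple loss, amanitin lowered 87. Cycloheximide lowered 47 of the 89 and raised 25.

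In the rescue most members lay near or above WT. At 4 hpf the median member was at 84.6% of WT in the rescue, and 29 of 35 lay within 2-fold of WT or above it. The share of all genes at this 2-fold mark was not counted. The median log2 ratio of the members was -0.21, beside 0.02 over 7719 genes with at least 5 RPKM in all libraries compared. The rule chose the members for a low level in the triple loss (median 3.46% of WT), so no comparison of the rescue with that library is drawn at 4 hpf. Rescue left 3 reduced (background 2.03%), krt18a.1, ENSDARG00000088382 and ENSDARG00000088742. In poly(A)+ RNA the triple loss lowered 27 of 33 tested members at 6 and 8 hpf (limma, background 19.6%) and raised none, where 50.2% of all genes were higher and the median of all genes was 0.62. Of 83 tested zygotic genes reduced at 4 hpf in Nanog MO and the triple loss, it lowered 59 and raised 9. Rescue raised 27 above the triple loss (background 9.93%) and lowered none (22.5%). Of the 27 members lowered in the triple loss, 23 were raised in the rescue, and 15 of these were not called against WT. Both calls use the same triple-loss libraries, so the 23 is a description. The share of all lowered genes that were also raised was not counted. The 23 include sox19a, whose exon signal in the rescue cannot be told apart from injected mRNA. Of the same 83 zygotic genes, the rescue raised 64 above the triple loss and lowered 8. Against WT, 22 of the 33 tested members were not called in the rescue, 7 were lower (background 14.9%) and 4 higher (background 35.6%). With each library centred on its median, 12 were lower, beside 3884 of all 14907 genes.

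Members differed in how far they came back. foxd3 had 38.4 RPKM in WT, 0.12 in the triple loss and 29.6 in the rescue at 6 hpf, and 32.8, 0.03 and 48.2 RPKM at 8 hpf, with a log2 fold change of rescue against triple loss of 6.06 ± 0.28 (limma adjusted p = 2.71e-05). klf2b had 44.0, 1.51 and 35.8 RPKM at 6 hpf in the same order and 59.1, 1.17 and 42.0 at 8 hpf. In both genes the rescue was above the triple loss at each stage and was not called against WT. apoeb had 1383, 19.6 and 550 RPKM at 6 hpf and 1733, 18.2 and 927 at 8 hpf, and irx7 had 56.1, 2.45 and 35.3 RPKM at 6 hpf and 107, 1.77 and 50.3 at 8 hpf. Both rose in the rescue over the triple loss and were lower than WT in the rescue, apoeb with a log2 fold change of -1.12 ± 0.20 (limma adjusted p = 0.00388) and irx7 with -0.87 ± 0.29 (adjusted p = 0.0435). The irx7 call against WT was lost with a pseudocount of 0.1, with no filter and without the variance trend.

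hes3 had 20.1 RPKM in WT, 0.059 in the triple loss and 10.0 in the rescue at 6 hpf, and 80.7, 0.059 and 14.4 RPKM at 8 hpf. krt18a.1 had 1212, 355 and 829 RPKM at 6 hpf and 1554, 421 and 1084 at 8 hpf. Its rescue lay above the triple loss and below WT at both stages, a difference from WT that was lost without the variance trend and turned direction under quantile normalization. si:ch211-152c2.3 had 1148, 27.5 and 685 RPKM at 6 hpf and 1335, 25.5 and 1070 at 8 hpf.

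Members with little response to the rescue included those set apart at 4 hpf by the MZpou5f1 libraries. urahb had 19.5 RPKM in WT, 4.44 in the triple loss and 4.97 in the rescue at 6 hpf, and 52.6, 2.88 and 3.25 RPKM at 8 hpf. Its rescue was not called against the triple loss (log2 fold change 0.15 ± 0.47, limma adjusted p = 0.842), although at 4 hpf the rescue held 6.27 RPKM, above the 4.75 of WT. gatm had 8.94, 2.69 and 3.94 RPKM at 6 hpf and 22.4, 3.62 and 5.88 at 8 hpf, with a log2 fold change of 0.55 ± 0.28 (limma adjusted p = 0.18). The other 4 not raised above the triple loss were akap12b, ackr3, znf1050 and ENSDARG00000088382, of which akap12b and ackr3 were not lower than WT in the triple loss by this test. The 4 members above WT in the rescue were sox19a, igf2a, prickle1 and znf1065, of which prickle1 and znf1065 lost the call with centred libraries and prickle1 also under quantile normalization. igf2a had 3.68 RPKM in WT, 8.74 in the triple loss and 23.9 in the rescue at 6 hpf, and 5.15, 5.09 and 35.5 RPKM at 8 hpf, so the rescue stood above both other conditions at each stage (log2 fold change against WT 2.61 ± 0.33, limma adjusted p = 0.00111).

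**Figure D5:**
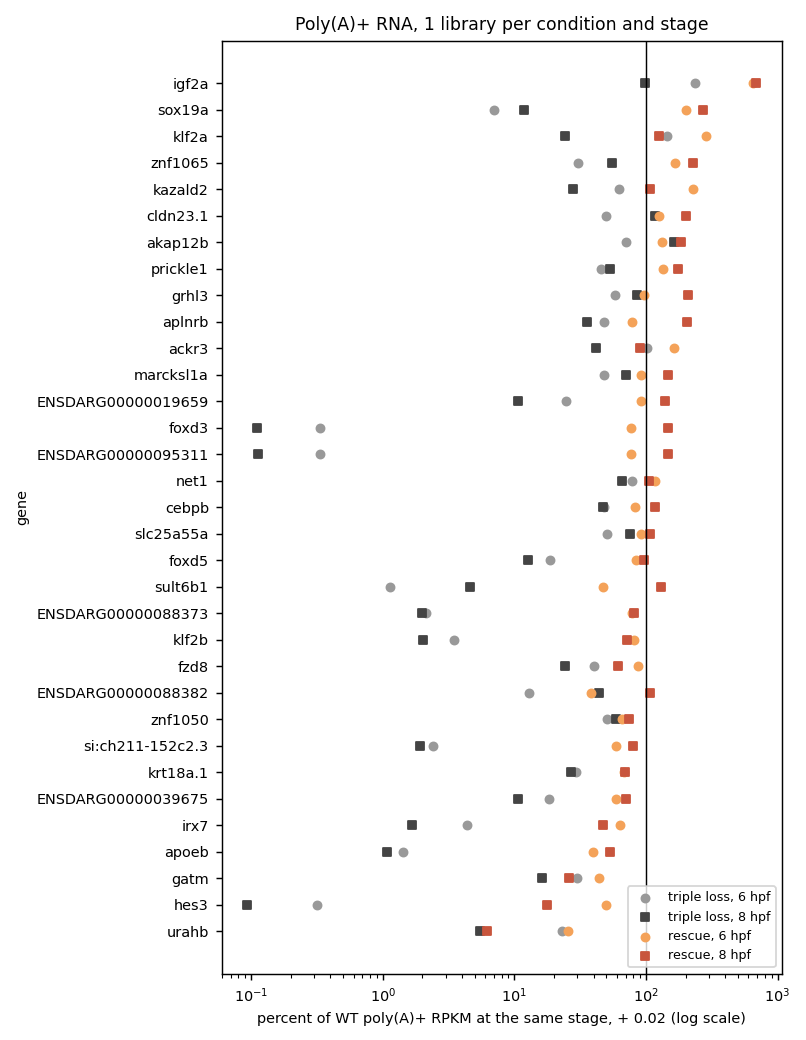
Level in poly(A)+ RNA as a percent of WT at the same stage, with 0.02 added on a log axis, for 33 members (rows) in the triple loss (grey) and the rescue (orange and red) at 6 hpf (circles) and 8 hpf (squares), 1 library each. The median over all 35 members was 30.0% at 6 hpf and 24.3% at 8 hpf in the triple loss, and 82.2% and 107.5% in the rescue, and urahb stays at 25.5% and 6.18% in the rescue.

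aplnrb and cldn23.1 ended above or near WT in the rescue. aplnrb had 76.7 RPKM in WT, 36.8 in the triple loss and 60.0 in the rescue at 6 hpf, and 62.7, 22.5 and 130 RPKM at 8 hpf. cldn23.1 had 84.6, 42.1 and 106 RPKM at 6 hpf and 51.6, 60.8 and 104 at 8 hpf, so its triple loss was below WT at 6 hpf and above it at 8 hpf. grhl3 had 72.7, 42.6 and 70.3 RPKM at 6 hpf and 30.0, 25.8 and 62.1 at 8 hpf, and foxd5 124, 23.13 and 105 RPKM at 6 hpf and 165, 20.9 and 159 at 8 hpf. Of these 4, aplnrb and foxd5 were lower in the triple loss than in WT by the poly(A)+ test, and all 4 were higher in the rescue than in the triple loss. With no filter on low values, the calls of aplnrb were lost in both comparisons, and those of cldn23.1 and grhl3 against the triple loss, which were also lost without the variance trend.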

How the data were processed

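Total and poly(A)+ RNA of whole zebrafish embryos was measured, and values were deposited by the authors in RPKM, per gene, for exons (31 libraries) and for introns. Per the submitters' processing notes, CASAVA 1.8.2, Bowtie 0.12.9 and TopHat2 2.0.7 were used with the build Zv9 (danRer7), and the library total used for scaling is not stated there. Libraries were rRNA-depleted or poly(A)-selected and strand-specific, per the labels' protocols.

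From these values, 846 of 27997 entries that joined overlapping genes were left out, and 71.8% of entries had a symbol. Values of log2(RPKM + 0.5) were fitted in R 4.3.3 with limma 3.58.1 (lmFit, eBayes with trend) for genes that reached 1 RPKM in 2 or more libraries, with two-sided tests and Benjamini-Hochberg adjustment over all tested genes of each comparison, threshold 0.05. A fold change on this scale understates the change of genes near 0.5 RPKM. The 6 hpf fit held 11 libraries, 3 residual degrees of freedom and 16242 genes, with a median residual SD of 0.25 on the log2 scale, and the poly(A)+ fit at 6 and 8 hpf held 14907 genes in 6 libraries, blocked by stage, and left 2 residual degrees of freedom. Its spread also holds differences between stages. The fits were also run on simulated data, with normal noise and the same spread of a gene in all conditions. That run cannot check the spread taken for conditions with 1 library, and no conclusion is drawn from it. Replicates are labelled only as separate samples, so p-values measure their spread, which may be technical. Their log2 values correlated at 0.966 to 0.977 across genes. No interval or detection limit is given, because depth is unknown. At 4 hpf, values are described without a test. Intron values had 0.1 added.

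The members, gene lists and rules were chosen with earlier results of these data known. Values in every sample are given for the 3 members of each class with the most WT poly(A)+ signal at 4 hpf, for members on a marker list and for those reduced in no pair. Alternatives were other pseudocounts, filters, thresholds, scalings, trend, a replicate block and each replicate left out. The 4 ribosome profiling libraries were not used here, and promoter sequence was not analysed here.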

Additional observations from a re-analysis of the deposited data

Results flagged for a closer look

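For 5 members the effect of one loss at 6 hpf differed by genotype or morpholino background, in limma tests of the difference itself that were chosen after the data were seen, with Benjamini-Hochberg adjustment over 16242 genes. Each of these tests includes conditions with 1 library, and all 7 calls were lost when either Nanog+SoxB1 MO replicate was left out. Without WT replicate 2, 1 of them held, that of ENSDARG00000088373 for the MZpou5f1 effect. The Nanog MO effect on log2 RPKM was more negative in MZpou5f1 SoxB1 MO embryos than in WT for irx7 (-3.37 ± 0.31 (SE), adjusted p = 0.022), sox19a (-2.84 ± 0.19, adjusted p = 0.00587) and ENSDARG00000088373 (-3.02 ± 0.34, adjusted p = 0.0363), where 0.197% of all genes were lower and 0.0431% higher. The MZpou5f1 effect was more negative in Nanog+SoxB1 MO embryos than in WT for sox19a (-2.16 ± 0.18, limma adjusted p = 0.0112), cldn23.1 (-1.75 ± 0.22, adjusted p = 0.0324) and ENSDARG00000088373 (-4.59 ± 0.31, adjusted p = 0.00613), where 0.376% of all genes were lower. It was less negative for si:ch211-152c2.3 (3.20 ± 0.27, limma adjusted p = 0.0112, 0.203% of all genes higher), whose level was already at 4.25 RPKM in MZpou5f1 without a morpholino. For the SoxB1 MO effect in Nanog MO against that in MZpou5f1 embryos, limma called 0 of 34 members, with 16 members and 1668 of all 16242 genes at an unadjusted p under 0.05.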

How the results depend on the processing

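At 4 hpf the thresholds moved the counts most. Counted at 2-fold, SoxB1 MO reduced 12 members in place of 5, the rescue 6 in place of 3, and 1 member in place of 7 was reduced with SoxB1 MO only. Counted at 8-fold, MZpou5f1 SoxB1 MO reduced 11 in place of 22, SoxB1 MO 1, the library labelled MZpou5f1 0 in place of 11, the rescue 1, and 4, 2 and 15 members were reduced with SoxB1 MO only, with MZpou5f1 only and in neither pair. With a pseudocount of 1 the library labelled MZpou5f1 reduced 5 and 8 were reduced in neither pair. At 6 hpf, Nanog+SoxB1 MO against WT called 19 to 29 members lower over all settings, 24 with the replicate block, whose numbers only share a number (correlation of replicate differences 0.092), and the triple loss 29 to 31. Leaving out a replicate gave 0 to 10 for Nanog+SoxB1 MO against Nanog MO and 4 to 15 for MZpou5f1 against WT, which had 8 with no filter. In poly(A)+ RNA the rescue was lower than WT for 12 members with centred libraries and 4 without the variance trend (3884 and 1971 of all 14907 genes). Leaving out a replicate gave 2 to 18 for the triple loss against Nanog+SoxB1 MO, 6 to 12 against MZpou5f1 SoxB1 MO (7 without the trend), and 0 for MZpou5f1 SoxB1 MO against MZpou5f1, which had 0 with a pseudocount of 0.1 or without the trend and 2 with no filter. It gave 0 to 2 where the Nanog MO effect was more negative with the other losses (6 with a filter at 5 RPKM, 0 without the trend), 0 to 2 where the MZpou5f1 effect was (7 and 1), and 0 to 2 where the MZpou5f1 effect was less negative (2 with a pseudocount of 0.1, a filter at 5 RPKM, quantile normalization or centred libraries). Members higher in the rescue than in WT numbered 2 with centred libraries. Of the values of single members in all comparisons tested, 6072 kept direction and call, 127 gained a call, 242 lost one and 1 turned direction: krt18a.1 in the rescue against WT had a log2 fold change of 0.0205 with quantile normalization. Causes were not tested. Depth, unknown in absolute terms, limits members near 0 RPKM, and the poly(A)+ fit has no replicates to leave out.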
